A study of Homo sapiens with 30 samples.

Results

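SIN3A and RNA polymerase II (Pol II) were each profiled by chromatin immunoprecipitation sequencing (ChIP-seq) in the parental form of MDA-MB-231, a long-established human line of triple-negative breast cancer grown in DMEM with serum. The comparison used 2 SIN3A libraries and 2 Pol II libraries, chosen by their antibody and genotype, of 30 samples in the series, 18 of which had a peak list. Parental lists of SAP30, SIN3B, H3K4me3 and H3K9Ac were used for comparison, as were 2 Pol II libraries of SAP30-KO1, a line of the same cells in which the SIN3 subunit gene SAP30 was knocked out with CRISPR/Cas9 and several knockout clones were mixed. The question was how far SIN3A and Pol II sit at the same protein-coding promoters, whether their strongest peaks coincide, and how far apart their summits lie.

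SIN3A is the scaffold of a corepressor complex that carries the histone deacetylases HDAC1 and HDAC2. It does not read DNA sequence itself and is brought to chromatin by DNA-binding factors and by subunits that recognise histone marks. Although the complex is best known for repression, it is also found at active promoters. Pol II often pauses shortly after the start site, so that its ChIP-seq signal at an active gene peaks just downstream of it.

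The deposited lists give each peak's summit, its highest point, as a single base. The SIN3A lists held 11115 and 10861 summits and the Pol II lists 20736 and 23002. Summits within 1000 bp of each other were merged, and regions that both libraries of a protein supplied were taken as its consensus, which gave 6035 for SIN3A and 15097 for Pol II. Each list was ranked by the score of its own summits, and a percent rank of 0 is the best summit and 100 the last. SIN3A was the less reproducible protein: at genes with both proteins its replicate ranks had a Spearman's rho of 0.452, against 0.839 for Pol II. The labels number the replicates without saying whether they came from separate cultures, and the input libraries are titled separately for the SIN3A and the Pol II experiment, so that protein and experiment cannot be told apart. Pol II was present at all 8 mesenchymal marker genes, among them VIM, AXL and CD44, at 3 of 8 luminal and epithelial markers (KRT8, KRT18 and EPCAM), and at none of 3 markers of other cell types (PTPRC, CD3E and ALB). Of these 3 luminal markers only KRT18 had its best-ranked Pol II summits within 1000 bp of its canonical start. KRT8 was counted for the same summits through an alternative start, at -44075 and -44048 bp from its canonical one in the 2 libraries, and the EPCAM summits lay at -24269 and -24259 bp from its canonical start. Of the mesenchymal markers, VIM had its best-ranked summits 1074 bp downstream of its canonical start in both libraries. Those of CAV1 lay 1026 bp downstream in replicate 1 and 53 bp in replicate 2.

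Nearly every promoter with SIN3A also had Pol II, but many Pol II promoters lacked a SIN3A consensus region. A gene was counted as bound when a consensus region had a summit within 1000 bp of one of its start sites. Of 20090 protein-coding genes, Pol II was present at 11625 (57.9%), SIN3A at 6327 (31.5%) and both at 6244 (31.1%). Pol II was therefore found at 98.7% of the SIN3A genes (95% Clopper-Pearson interval 98.38 to 98.95%), whereas SIN3A was found at 53.7% of the Pol II genes (52.8 to 54.6%). Among 11068 genes with no SIN3A summit in either library the Pol II share was 25.2%, and among the 8018 genes with no Pol II summit the SIN3A share was 0.586%, or 47 genes. These intervals cover counting error over genes only. When each of the 4 pairs of 1 SIN3A and 1 Pol II library was read by itself, the Pol II share of SIN3A genes was 98.4 to 98.8% and the SIN3A share of Pol II genes 62.8 to 65.1%.

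Promoters where a SIN3A summit failed to repeat still nearly always had Pol II. Unrepeated summits away from promoters were not counted in this. There were 2695 genes with SIN3A summits but no consensus region, 1413 with a summit in replicate 1 only, 1242 in replicate 2 only and 40 with summits of both at different places. Pol II was present at 96.2% of these genes. Most genes without SIN3A also lacked H3K4me3, a histone mark of active promoters. Among genes with an H3K4me3 consensus region, Pol II was at 67.8% of the 3979 without SIN3A and at 98.97% of the 6223 with it.

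The related proteins overlapped Pol II in a different balance. SIN3B, the paralogous scaffold, was present at 87.8% of Pol II genes, and SAP30 at 97.6%. Pol II was present at 97.7% of SIN3B genes and 91.9% of SAP30 genes. The lists of these proteins were longer, so each was cut to its best 10859 summits, the length of the shorter SIN3A list. SIN3A then covered 53.2% of Pol II genes, SIN3B 63.5% and SAP30 76.3%. No test was made between these shares.

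SIN3A presence followed the Pol II rank. Pol II genes were put into deciles by the mean rank of their best Pol II summit in the 2 libraries. SIN3A was present at 77.3% of 1163 genes in the best decile, at 58.99% in decile 5 and at 16.4% in the last. The fall was seen at every step and in each SIN3A library by itself, from 86.2% to 25.5% in replicate 1 and from 84.1% to 24.2% in replicate 2. Over the same deciles SIN3B fell from 96.6% to 52.9%, while SAP30, whose lists are the longest of the 3, stayed between 93.1% and 99.1%. The gradient was present for all 3 proteins when each list was cut to 10859 summits. SIN3A then fell from 76.8% in the best decile to 16.2% in the last, SIN3B from 76.5% to 21.6%, and SAP30 from 90.97% to 34.8%. The median Pol II rank was 20.04 and 18.01 in the 2 Pol II libraries at genes with SIN3A, 29.3 and 25.9 where SIN3A had no consensus region, and 43.5 and 38.7 where it had no summit. Both Pol II libraries thus placed the 3 classes in the same order.

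**Figure D1:**
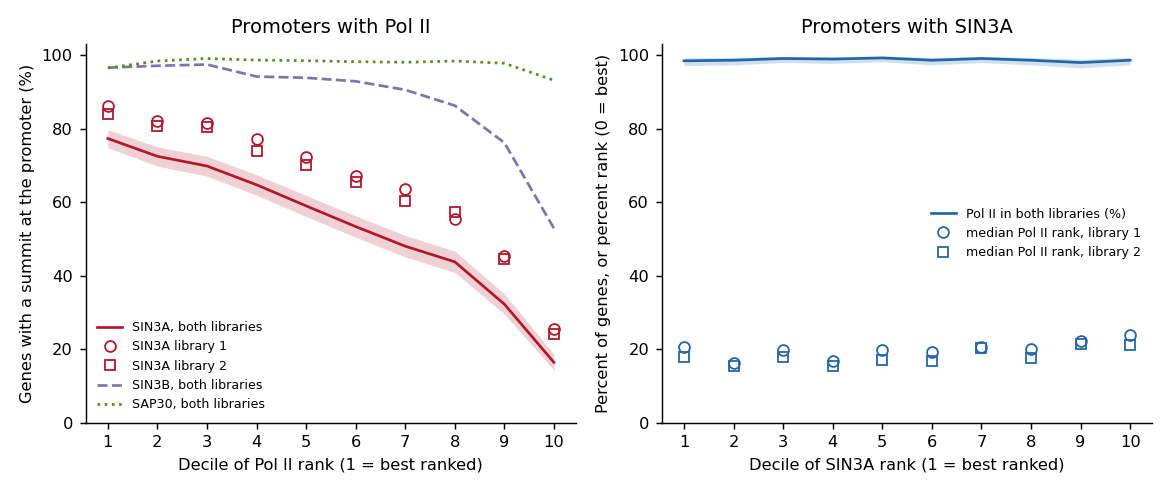
Left, share of Pol II genes (y axis, percent) with SIN3A, SIN3B or SAP30 by decile of Pol II rank (x axis); the red line is SIN3A in both libraries with its 95% interval and the open symbols are each SIN3A library, falling from 77.3% to 16.4%. Right, by decile of SIN3A rank, the share of SIN3A genes with Pol II (line with 95% interval) stays between 97.9% and 99.2%, and the median Pol II rank of each library (open symbols) lies between 15.4 and 23.9.

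Seen from the other side there was almost no such gradient. By decile of SIN3A rank, the Pol II share lay between 97.9% and 99.2%, and the median Pol II rank between 15.4 and 23.9 in the 2 libraries. Over the 6244 genes with both proteins, Spearman's rho between SIN3A rank and Pol II rank was 0.0442 to 0.0645 in the 4 library pairs. This is a correlation across genes, some of which share a promoter, and the SIN3A replicates themselves had a rho of 0.452. The best summit near any start of a gene was taken for each protein, so the ranks can come from different starts. At CDC25C, SIN3A lay at 27 and 28 bp and Pol II at -6513 and -6519 bp from the canonical start. The correlation was not repeated with 1 start site per gene. At the same genes the rho with Pol II was 0.0741 to 0.0917 for SAP30 and -0.0260 to 0.0230 for SIN3B, whereas it was 0.226 to 0.270 for H3K4me3 and 0.414 to 0.419 for H3K9Ac, an acetyl mark of active promoters. SIN3A and SAP30 ranks, by contrast, had a mean rho of 0.580 over 6206 genes. The genes with both proteins are a restricted set. Over all genes with Pol II and the protein itself, the mean rho with Pol II was 0.373 for SAP30 (11351 genes) and 0.122 for SIN3B (10203 genes). For SIN3A the 2 sets are the same, and how far the restriction lowers its rho was not tested. The presence of SIN3A was thus graded with Pol II, while its rank, over the genes with both, showed little relation to the Pol II rank.

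**Figure D2:**
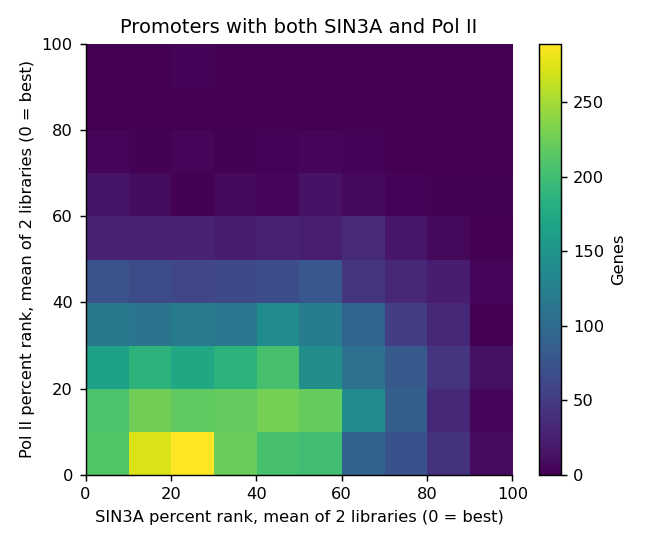
Number of genes (colour) by SIN3A percent rank (x axis) and Pol II percent rank (y axis), each the mean of 2 libraries, over the 6244 genes with both proteins. Genes crowd at good Pol II ranks across most SIN3A ranks, with up to 289 in a cell of 10 by 10 rank points, and there is no diagonal.

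The genes at the ends of the 2 rankings were different. The best mean of the SIN3A and Pol II ranks belonged to a promoter shared by POLR2L, a subunit of RNA polymerases, and TSPAN4, a tetraspanin. SIN3A ranks there were 0.499 and 0.0460 and Pol II ranks 1.27 and 0.909. BOP1, a ribosome biogenesis factor, and HSF1, the heat shock regulator, followed with another shared promoter, and then TFRC, the transferrin receptor, with SIN3A ranks of 1.22 and 0.405 and Pol II ranks of 1.94 and 1.66. At the other end, the best-ranked Pol II genes without any SIN3A summit were ACTB (cytoplasmic actin), H1-2 and H3C3 (histones), C12orf57 and TMSB10 (thymosin beta). ACTB, on chromosome 7 from 5566040 to 5603533, had Pol II ranks of 0.135 and 0.100, and SAP30, SIN3B and H3K4me3 summits in both libraries. The absence of SIN3A at these genes is an absence from the deposited lists, which end at a q-value near 0.05.

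The 47 genes with SIN3A but no Pol II summit were led by NPAS4, an activity-dependent transcription factor of neurons, on chromosome 11 from 66188506 to 66194178. Its summit was the best of the whole list in both SIN3A libraries (percent rank 0), 744 and 758 bp downstream of the start site, with SAP30 and SIN3B in both libraries and no H3K4me3. Next came SCRT1, a neuronal repressor, with SIN3A ranks of 2.89 and 1.06, PGBD5, a transposase-derived gene, with 2.93 and 2.17, DNAJC6, the neuronal clathrin uncoating factor auxilin, with 1.83 and 3.93, and USP2, a ubiquitin protease, with 4.79 and 1.34. Of the 47 genes, 87.2% had SAP30, 78.7% SIN3B, 76.6% H3K4me3 and 63.8% H3K9Ac. At genes with both SIN3A and Pol II these shares were 98.2%, 97.9%, 98.6% and 98.8%, and over all genes 61.4%, 51.99%, 63.9% and 61.7%.

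Since 3 of these 5 genes are known for roles in neurons, the sequence at SIN3A summits was searched for RE1, the element bound by the repressor REST, which silences neuronal genes outside the nervous system and binds SIN3A. This search was chosen after the gene names were seen. RE1 was taken as CAGCACC and GGACAGC with 2 bases between them, on either strand, within 100 bp of the best summit of each SIN3A consensus region, with at most 2 of the 14 letters different. Such a match lay at 28 of 190 regions with no Pol II summit within 1000 bp (14.7%) and at 85 of 5845 with one (1.45%). With no letter different the counts were 13 (6.84%) and 2 (0.0342%). Among the 100 best-ranked regions of each kind a match was found at 19 and 3, though these came from 190 and 5845 regions, so that rank was not matched. The matches without Pol II lay a median of 20.5 bp from the summit, and the 85 with Pol II a median of 39.5 bp. Of the 28 without Pol II, 9 were within 1000 bp of a protein-coding start site. Most regions of either kind had no match, and the 2 kinds were not matched for distance to a start site. The 10 best-ranked sites without Pol II are shown as examples, except that near SCRT1. They were read from GRCh37 in the direction of the element, with its 7-letter blocks in capitals:
NPAS4, chr11:66189220-66189245, minus strand, intron of NPAS4: gccgtCAGCACCatGGGCAGCgcccc
SYT7, chr11:61334820-61334845, minus strand, intron of SYT7: tgtttCAGCACCttGGACAGCtctgg
LIN28A, chr1:26735185-26735210, plus strand, outside protein-coding genes: caattCAGCACCgtGGACAGAgctgc
HOOK2, chr19:12943361-12943386, plus strand, intron of HOOK2: gatttCAGCACCgcGGACAGGagcgc
VRK3, chr19:50490536-50490561, minus strand, intron of VRK3: gggttCAGCACCagGGACAGCggagc
LHX2, chr9:126872754-126872779, plus strand, outside protein-coding genes: tttatCAGCACCgcGGACAGCatcca
DNAJC6, chr1:65775597-65775622, plus strand, coding exon of DNAJC6: cgcgcCAGCACCatGGACAGCtcagg
SHANK2, chr11:70496577-70496602, plus strand, intron of SHANK2: tggttCAGCACCctGGAGAGAgacca
L1CAM, chrX:153140955-153140980, minus strand, intron of L1CAM: gatttCAGCACCagGGACAGCgaacc
The gene named is the one that holds the site or, outside genes, the one with the nearest protein-coding start site. The nearest start was 744 bp away at NPAS4, 362 bp at DNAJC6, 2103 bp at LIN28A and 98746 bp at LHX2. SYT7 is a calcium sensor of vesicle release, SHANK2 a postsynaptic scaffold, HOOK2 a microtubule linker, VRK3 a kinase-like protein, L1CAM a neural adhesion molecule, LIN28A an RNA-binding pluripotency factor and LHX2 a homeobox factor. A match is a description of sequence, and REST binding was not measured.

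**Figure D3:**
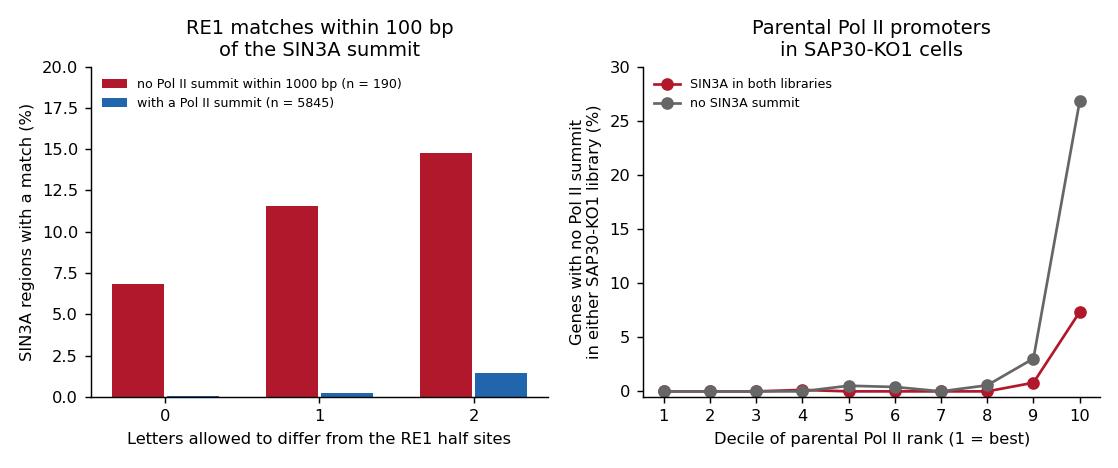
Left, share of SIN3A consensus regions (y axis, percent) with an RE1 match within 100 bp of the summit, by the number of letters allowed to differ (x axis), for 190 regions without and 5845 with a Pol II summit; with up to 2 letters it was 14.7% and 1.45%. Right, share of parental Pol II genes with no Pol II summit in either SAP30-KO1 library (y axis, percent) by decile of parental Pol II rank (x axis); in the last decile it was 7.33% with SIN3A and 26.8% without.

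Promoter sequence was then compared, also by choice after results were seen, in the 300 bases from 250 upstream to 50 downstream of each canonical start site. The ratio of observed to expected CpG had a median of 0.889 with both proteins, 0.822 with Pol II and no SIN3A, 0.800 with SIN3A and no Pol II, and 0.352 with neither. The SP/KLF box GGGCGG was found on either strand at 79.5% of promoters with both and 69.9% with Pol II alone (61.0% of all promoters). The ETS motif CCGGAAG was at 23.3% and 16.1% (14.02% of all), and the E-box CACGTG at 12.7% and 6.92% (8.75% of all). The CRE motif TGACGTCA was at 4.196% and 2.62% (2.68% of all). Other motifs were less frequent with SIN3A, with AP-1 (TGANTCA) at 3.07% and 4.77% (5.43% of all) and TATAAA, 40 to 16 bp upstream on the sense strand, at 1.39% and 2.33% (3.88% of all). The NRF1 motif GCGCATGCG was at 4.13% and 3.91% (2.69% of all), but the direction turned with the Pol II rank. In deciles 1 to 5 it was at 4.21% of 3991 promoters with SIN3A and 7.99% of 638 without, and in deciles 6 to 10 at 3.99% of 2253 and 2.70% of 2150. Of the motifs left, NF-Y (CCAAT) was at 38.9% and 34.6% (35.9% of all), E2F (GCGGGAA) at 12.3% and 9.25% (8.57%), YY1 (AAGATGGCG) at 4.66% and 4.45% (2.82%), ZBTB33 (CTCGCGAGA) at 1.68% and 1.18% (0.996%) and ZNF143 (ACTACAATT) at 0.737% and 0.753% (0.448%). The direction turned with the Pol II rank for the last 3 as well. In deciles 1 to 5, with and without SIN3A, YY1 was at 4.81% and 6.27%, ZBTB33 at 1.93% and 2.82% and ZNF143 at 0.727% and 0.940%. In deciles 6 to 10 they were at 4.39% and 3.91%, 1.24% and 0.698%, and 0.755% and 0.698%.

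The SIN3A summit lay a little farther into the gene than the Pol II summit and was placed less sharply. This was measured at 1863 stand-alone genes with both proteins, whose start sites fall within 500 bp and which have no other gene start within 2000 bp. Pol II summits had a median position of 42 bp downstream of the start site in replicate 1 and 41 bp in replicate 2. SIN3A summits had a median of 92 and 80 bp. The means were 41.5 ± 0.707 bp for Pol II and 86.0 ± 8.49 bp for SIN3A (SD, n = 2 libraries each), so the groups did not overlap, and the difference of 44.5 bp had a two-sided exact permutation p of 0.333, which is the smallest that 2 against 2 libraries can give. Within genes, SIN3A was 53 to 62 bp downstream of Pol II in the 4 library pairs and on the downstream side at 65.5 to 68.4% of genes. The median distance between their summits was 110 to 116 bp, against 80 bp between the SIN3A replicates and 26 bp between the Pol II replicates. Of Pol II summits, 65.7% and 65.8% lay in the 100 bp downstream of the start site, compared with 29.7% and 32.4% of SIN3A summits, and 25.8% and 25.5% of SIN3A summits lay over 200 bp downstream. SAP30 summits had medians of 103.5 and 92 bp and H3K4me3 summits of 237 and 246.5 bp.

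**Figure D4:**
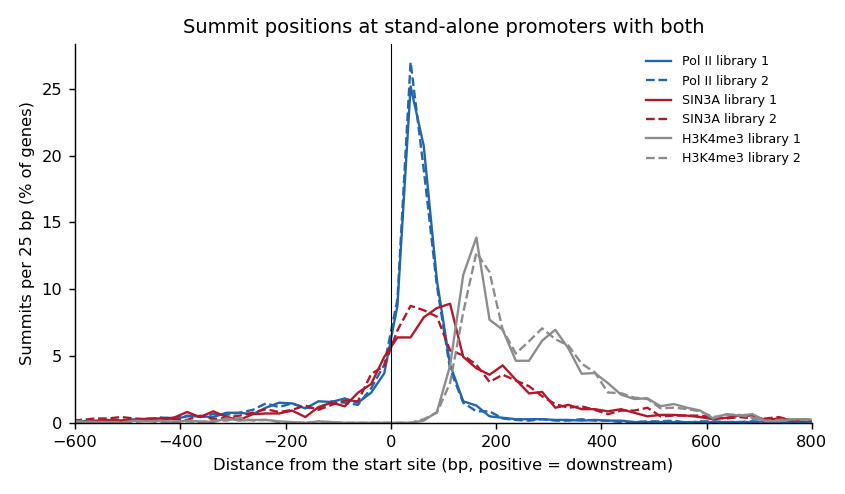
Summits per 25 bp (y axis, percent of genes) by distance from the start site (x axis, bp, positive downstream) at stand-alone genes with SIN3A and Pol II, with 1 line per library. Pol II forms a narrow peak with medians of 42 and 41 bp, SIN3A a broad one with medians of 92 and 80 bp, and H3K4me3 lies farther downstream.

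The offset was smaller at the best SIN3A peaks. The stand-alone genes were cut into 5 equal groups by SIN3A rank, and in the best group it was 28 to 40 bp over the library pairs, compared with 69 to 82 bp in the last. The distance between the SIN3A replicates moved with it, from 43 bp to 104 bp, and its part in the offset was not tested. By Pol II rank the direction was the opposite. The offset was 58 to 74 bp in the best group and 25 to 36 bp in the last, with SIN3A replicate distances of 97 and 60 bp. At the 920 genes whose replicates placed each protein within 100 bp, the median offset was 35.5 bp with an interquartile range of -26.1 to 130 bp. Large offsets remained there. SIN3A lay 887 bp downstream of Pol II at FOSL1, an AP-1 subunit, and 1127.5 bp at MXD4, a MAX partner, followed by STK39, INO80 and MAP3K3 between these. Pol II itself lay upstream of the start site at MXD4 (-485 and -501 bp), INO80 (-450 and -405 bp) and MAP3K3 (-543 and -520 bp). It lay near the start at FOSL1 (39 and 28 bp) and STK39 (38 and -13 bp). SIN3A lay upstream of Pol II at DYRK2, a kinase (offset -797.5 bp), SFT2D3 (-762 bp), RNF213 (-687 bp), ZFTA (-661.5 bp) and SLBP, the histone mRNA stem-loop binding protein (-604.5 bp). At divergent genes, which have an opposite start site within 1000 bp upstream, the offset was 25 to 35 bp, and there SIN3A was also more frequent, at 65.3% of 3711 Pol II genes, compared with 47.6% of 3914 stand-alone Pol II genes.

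Gene groups differed widely in SIN3A at similar Pol II. For each list the share of Pol II genes with SIN3A was set beside the share over all Pol II genes when weighted to the same Pol II deciles. Of 38 mitotic genes, which drive chromosome segregation and entry into mitosis, 38 had Pol II and 37 (97.4%) also SIN3A, beside 58.0% at the same deciles. Their median SIN3A rank was 10.1. DNA replication and E2F target genes had SIN3A at 41 of 48 (85.4%, beside 54.8%), with PCNA, the sliding clamp, at SIN3A ranks of 2.51 and 0.543 and RRM2, a ribonucleotide reductase subunit, at 3.36 and 0.985. POLA2 and PRIM1, of the DNA polymerase alpha-primase complex, had Pol II and no SIN3A summit. Aminoacyl-tRNA synthetases, which charge tRNAs, had SIN3A at 18 of 20 (90%, beside 58.4%), with FARSA at SIN3A ranks of 3.24 and 2.93 and AARS1 at 21.8 and 5.25, and AP-1 and immediate early genes at 26 of 30 (86.7%, beside 67.3%). Among the latter JUNB, an AP-1 subunit, had SIN3A ranks of 6.09 and 4.80 and CCN1, a matricellular protein, 31.4 and 26.2, while EGR1 had no SIN3A summit at Pol II ranks of 2.98 and 7.56.

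Of 64 replication-dependent histone genes, 34 (53.1%) had Pol II, compared with 57.9% of all protein-coding genes. These 34 had the best Pol II ranks of any list, with a median of 0.673. SIN3A was present at 3 of the 34 (8.82%, beside 69.9%), and a further 13 had summits without a consensus region. H1-4 and H4C3 were among the 3. H1-4 had SIN3A ranks of 99.7 and 55.4 and Pol II ranks of 0.145 and 0.104. Histone genes are near-identical copies in clusters, and how the authors treated reads that map to several places is not given in the sources used here. Oxidative phosphorylation subunits had SIN3A at 31 of 77 (40.3%, beside 57.1%), and COX7A2 and NDUFB11, of the respiratory chain, had Pol II without SIN3A. Few genes of 3 other lists had Pol II, so that their shares rest on few genes. Collagens had SIN3A at 3 of 12 Pol II genes (25%, beside 46.9%), with none at COL6A1 and COL18A1. Inflammatory cytokines had it at 2 of 9 (22.2%, beside 37.4%), IL11 and CSF1. HOX genes, regulators of body axis identity, had Pol II at 6 of 39 and SIN3A at 1 of these, HOXD1 (16.7%, beside 39.7%). None of 399 olfactory receptor genes had either protein.

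The remaining lists lay within 14 percentage points of the share at their deciles, on either side. Cytosolic ribosomal protein genes had SIN3A at 52 of 78 (66.7%, beside 72.9%), with RPL12 at SIN3A ranks of 19.7 and 29.8 and no SIN3A at RPL3 and RPL13A. Proteasome subunits had it at 26 of 37 (70.3%, beside 56.8%), present at PSMD8 and PSMA7 and absent at PSMB6 and PSMA3. Glycolysis genes were at 14 of 21 (66.7%, beside 67.6%), and GAPDH had SIN3A ranks of 87.6 and 96.2 with Pol II ranks of 0.313 and 0.278, while TPI1 had no SIN3A summit. Heat shock genes were at 16 of 24 (66.7%, beside 66.8%), with DNAJB1 and HSPA1B carrying SIN3A and DNAJB4 and HSPB1 not. Mesenchymal genes were at 11 of 23 (47.8%, beside 56.4%), where VIM, the intermediate filament vimentin, had SIN3A ranks of 3.604 and 39.9, and SNAI1 and SNAI2 had none. Zinc finger genes of chromosome 19 were at 82 of 197 (41.6%, beside 46.4%). The subunit genes of the SIN3 complex had SIN3A at 18 of 26 (69.2%, beside 56.3%), among them SIN3A itself at ranks of 28.3 and 28.8, KDM5B at 2.96 and 0.295 and OGT at 4.23 and 3.93, whereas SAP130, MORF4L1, MRFAP1 and RBBP7 had Pol II and no SIN3A summit.

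**Figure D5:**
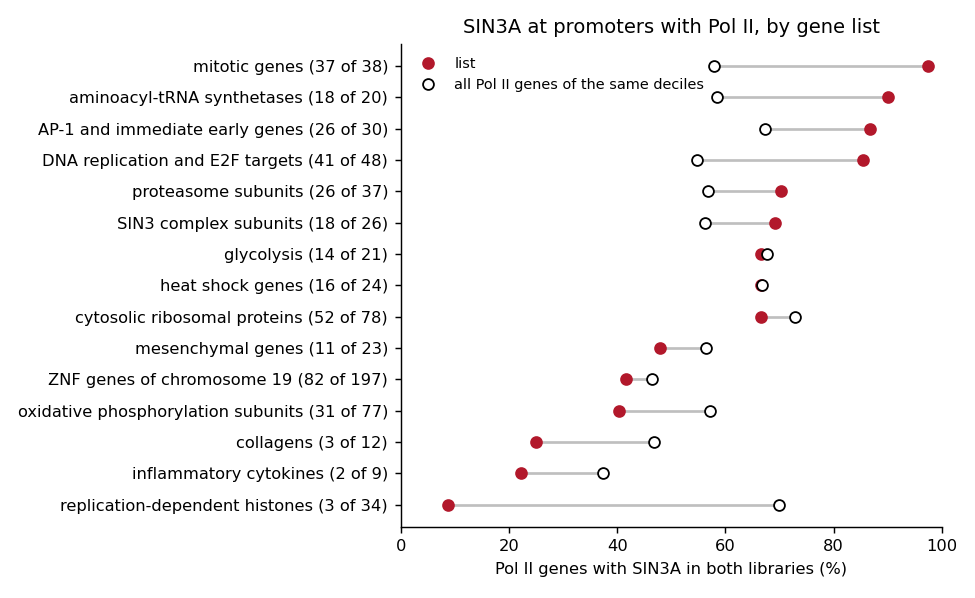
Share of Pol II genes with SIN3A in both libraries (x axis, percent) for each gene list (filled points, with counts beside the names) and for all Pol II genes weighted to the same Pol II deciles (open points). Mitotic genes stand at 97.4% beside 58.0%, and replication-dependent histones at 8.82% beside 69.9%.

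The lists at both extremes shared a promoter element. The 64 histone promoters counted here include those without Pol II. CCAAT was found at 86.8% of 38 mitotic and 85.9% of 64 histone promoters, against 35.9% of all promoters. The cell-cycle homology region TTTGAA, an element of genes expressed in late cell cycle, was at 73.7% of mitotic and 34.4% of histone promoters (11.6% of all), and TATAAA at 2.63% and 54.7% (3.88% of all). Stretches upstream of the start sites of CKS2, a cyclin-dependent kinase subunit with SIN3A, and of the histone genes H1-2, H3C3 and H1-4 show these elements in capitals, on the strand of the gene in GRCh37:
CKS2, TTTGAA on the other strand, chr9:91926069-91926098, plus strand: cgggctgtcggaTTCAAAtccggatcgttg
CKS2, CCAAT, chr9:91926046-91926075, plus strand: cggcgctgctgtCCAATcggcggcgggctg
H1-2, CCAAT, chr6:26056738-26056767, minus strand: gcgaccagagcaCCAATcagagcgcgcctg
H3C3, CCAAT, chr6:26045548-26045577, plus strand: aatattacaggaCCAATcagaatgtttctc
H1-4, TATAAA, chr6:26156516-26156545, plus strand: agctccgccctaTATAAAcgggcgggcgca
The CCAAT element began 52 bp upstream of the start site at CKS2, 57 bp at H1-2 and 52 bp at H3C3. CKS2 had SIN3A ranks of 39.3 and 29.8 and Pol II ranks of 1.59 and 2.20.

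SIN3A was less frequent on chromosome X than at Pol II genes of the same deciles, a comparison chosen after results were seen. It was present at 19.4% of the 371 Pol II genes on chromosome X, beside 42.1% over all Pol II genes at the same deciles, and at 39.6% (chromosome 22) to 68.3% (chromosome 20) on the autosomes. In deciles 1 to 5 the share was 27.5% of 80 genes on X and 69.2% of 5733 on the autosomes, and in deciles 6 to 10 it was 17.2% of 291 and 39.9% of 5521. In SIN3A replicate 1 alone the share was 37.5% on X and 51.9 to 76.8% on the autosomes, and in replicate 2 alone 29.4% and 54.2 to 75.9%. SIN3B was also less frequent on X, at 87.5% of the Pol II genes in deciles 1 to 5, compared with 95.9% on the autosomes, and at 59.1% and 80.8% in deciles 6 to 10. SAP30, with its longer lists, was near saturation in both, at 80 of 80 genes on X and 98.2% of the autosomal genes in deciles 1 to 5, and at 97.9% and 97.05% in deciles 6 to 10. Chromosome copy number in these cells, which alters the depth of a peak, was not measured here.

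Away from protein-coding promoters the overlap loosened. Of SIN3A consensus regions, 90.3% touched a protein-coding promoter, and 98.3% of these had a Pol II consensus region within 1000 bp. At 200 regions that touched the start of a long noncoding RNA gene only, the share was 92.5%, and at 387 regions away from any start it was 53.5% (48.4 to 58.5%). In the other direction, SIN3A was at 50.5% of the Pol II regions at protein-coding promoters and at 7.17% of 3429 away from any start.

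Of the 9 genes the study followed, RDX, the membrane linker radixin, and IPO13, a nuclear import receptor, had both proteins. Their SIN3A summits were not placed alike by the replicates, at -336 and -139 bp from the start site of RDX and at -335 and -5 bp from that of IPO13. PDGFD and ARTN, both growth factors, had Pol II and no SIN3A summit. PDGFB and ADM2 had a Pol II summit in 1 library and no SIN3A summit. CLDN1, NOTCH3 and HSPA6 had no summit of either protein. These are absences from the deposited lists. With ChIP-qPCR in parental cells, the paper reported SIN3A enrichment at PDGFD, CLDN1, RDX and ADM2. It also showed browser views of SIN3A and Pol II ChIP-seq at PDGFD, RDX, HSPA6 and IPO13. Its averaged ChIP-seq profiles placed SIN3A on the coactivated and the corepressed genes as groups. Only peak lists were read here, not the signal itself.

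Lastly, Pol II at SIN3A and other promoters was compared between parental and SAP30-KO1 cells, since SAP30 belongs to the same complex. At genes with Pol II in all 4 libraries, the median Pol II rank of 2203 genes without SIN3A lay behind that of 6076 genes with SIN3A by 18.1 and 16.6 rank points in parental cells and by 16.5 and 18.2 in SAP30-KO1 cells. The means of 17.3 ± 1.08 and 17.4 ± 1.21 (SD, n = 2 libraries each) differed by 0.0243 with a two-sided exact permutation p of 1, in a design whose smallest p is 0.33, so that the gap was not shown to differ. Ranked among these genes only, the difference was -4.02 (exact permutation p = 0.333), so its direction was not settled. Pol II summits that were absent from both knockout libraries were rare at SIN3A promoters, with 18 of 6244 (0.288%, 95% Clopper-Pearson interval 0.171 to 0.455%), and numbered 226 of 2788 (8.11%, 7.12 to 9.18%) where SIN3A had no summit. Most of these genes were in the last decile of parental Pol II rank, where 14 of 191 (7.33%) and 207 of 773 (26.8%) were absent. The parental libraries had chosen these genes, and genes without SIN3A also more often lacked Pol II between the parental replicates. Of the genes with Pol II in parental replicate 1, 0.272% with SIN3A and 3.73% without lacked it in replicate 2, and of those in replicate 2, 0.447% and 9.08% lacked it in replicate 1. Against a single knockout library, parental Pol II genes lacked it at 0.752 to 2.46% with SIN3A and at 13.7 to 22.5% without, so more were absent in either class than between the parental replicates. Whether the 2 classes differ in this beyond the spread of the libraries was not tested. No library of the series profiled SIN3A in the knockout. By ChIP-qPCR, the paper reported less SIN3A at PDGFD, CLDN1, RDX and ADM2 in SAP30-KO1 cells.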

How the data were processed

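MDA-MB-231 ChIP-seq was read from the authors' deposited peak lists. Per the labels, the authors aligned reads to hg19 with Bowtie2 2.3.3.1 after FastQC 0.11.2 and called peaks with MACS2 2.1.0, with Picard also listed. Each deposited list holds 1-bp summits with a score, which its range identifies as the −log10 of the q-value (lowest values from 1.31 to 1.34, or q of 0.0455 to 0.0489, in the 4 lists). Lists were made per replicate. Filters, options and the control of each list are not given in the sources used here, and nor is the meaning of a tag, 20 or 20perc, in the peak names of Pol II and H3K4me3. The sequencing depth is unknown, and scores were therefore used only as ranks within a list.

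Protein-coding start sites came from basic transcripts of GENCODE 44 lifted to GRCh37. A promoter reached 1000 bp to each side, and the best-ranked summit there stood for the gene. Summits outside the main chromosomes were left out. Deciles of Pol II rank were formed over genes with a Pol II consensus region. Intervals are Clopper-Pearson at 95% and cover counting error only, and genes are not replicates, so no p-value was given across genes. Medians per library were compared with a two-sided exact permutation test. Python 3.11.15, numpy 2.4.6, pandas 2.3.3, scipy 1.17.1 and matplotlib 3.10.9 were used, and the steps were tested on simulated summits. Replicate numbers entered no main comparison and served as a block in 1 alternative.

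The members and the gene lists were chosen with earlier results of these data known. Genes named in the text were the 9 genes the study followed, the 5 with the best mean rank of both proteins, the 5 best of either protein without the other, up to 4 of each gene list with the best Pol II rank (2 with SIN3A and 2 without), and the 5 largest offsets in each direction. Of these groups some members are given by symbol only or not at all. The SIN3 complex subunits beyond that rule, the cell type markers and the genes at RE1 matches were named apart from it, the first and the last after their values were seen. The motif and chromosome X comparisons were likewise chosen after results were seen. Zinc finger genes are all ZNF symbols on chromosome 19. PECAM1 and the older symbols FAM60A and RPL40 were not matched. The alternatives covered the promoter window, the merging distance, the consensus rule, list length, start sites, replicates and the pairing of libraries.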

Additional observations from a re-analysis of the deposited data

How the results depend on the processing

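The rank correlation and the offset kept their sign under every alternative run, whereas the knockout difference, close to 0, changed sign. A share cannot change sign, so only its size can be compared. The SIN3A share of Pol II promoters varied most, from 31.6% to 73.9%. In every alternative that gave both, the Pol II share was higher at promoters with SIN3A than without. The Pol II share of SIN3A promoters, 98.7%, was 97.8% with a 500 bp window, 91.5%, 97.5% and 98.9% with summits merged within 200, 500 and 2000 bp, 98.9% with a summit in either library, 91.0% in the better-ranked 50% of each list, 90.8% with all 4 lists cut to 10859 summits, 98.3% with 1 start site per gene, and 98.27 to 98.99% with a library left out. The Pol II share of promoters without SIN3A, 25.2%, was 23.1% with merging within 200 bp, 28.4% with either library, 27.2% in the better-ranked 50%, 14.7% with equal lists, 67.8% at promoters with H3K4me3, and 25.9 to 33.4% with a library left out. The SIN3A share of Pol II promoters, 53.7%, was 48.4% and 52.5% with merging within 200 and 500 bp, 73.9% with either library, 31.6% in the better-ranked 50%, 59.9% with equal lists, 51.9% with shared promoters counted once, 54.8% without chromosome X (an alternative chosen after seeing the data), and 52.5 to 65.6% with a library left out. The highest came without SIN3A replicate 2. Leaving out histone genes, also chosen afterwards, moved no value by more than its spread. The best decile of Pol II rank gave 69.3% instead of 77.3% with merging within 200 bp, and the last decile, 16.4%, gave 15.005% there, 14.7% with a 3000 bp window, and 18.7% and 17.5% with the deciles of Pol II library 1 or 2 alone. The rank correlation stayed between 0.0464 and 0.0642. The offset, a mean of 57.25 bp, was 49.5 bp in the better-ranked 50%, 49.25 bp over all genes, 41.6 bp for the nearest pair of summits and 53 to 61.5 bp with a library left out. The knockout difference, 0.0243 rank points, was -4.02 when ranks were taken among these genes only and 1.53 within Pol II deciles (exact permutation p = 0.333 for each, the smallest possible), and -0.830 to 0.879 with a library left out. Causes were not tested.

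With the replicate number as a block, that is over same-numbered pairs, the Pol II share without SIN3A was 34.4% and the SIN3A share of Pol II promoters 63.9%. Crossed pairs gave 34.3% and 63.95%, since a single library replaces the consensus in both. The replicate differences of SIN3A and Pol II rank had an r of -0.00653 over 6244 genes, so no pairing by number was seen in the ranks. This r cannot tell whether same-numbered libraries shared a culture. The knockout difference was 0.622 under the block. No call changed under it.

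Absence from a list depends on a depth that is not known here. With 2 libraries for each protein the smallest exact p is 0.333. SIN3A and Pol II lists differ in length, antibody and experiment, and these cannot be told apart from the protein.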
